A study of Homo sapiens with 8 samples.

Results

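The ERK pathway feedback and output genes are 10 genes that cells switch on when the mitogen-activated kinase ERK is active: DUSP4, DUSP5, DUSP6, SPRY2, SPRY4, ETV4, ETV5, PHLDA1, IER3 and EGR1. They were taken by gene symbol from the deposited array table, where all 10 were present, with 11 of 20589 probes because DUSP4 has a pair of them, among 18189 gene symbols in all. The samples were microdissected MCF10A-5E acini at day 6. MCF10A is a human mammary epithelial line that grows without limit but forms no tumours, MCF10A-5E is 1 clone of it, and on basement membrane its cells form spheres in which an outer layer touches the matrix and inner cells do not. The 4 outer samples held matrix-attached cells and the 4 inner samples held cells without matrix contact, each of about 50 cells cut from 8 µm sections, and their RNA was amplified through its poly(A) tails by PCR before it was read on Illumina HumanRef-8 arrays. All 8 samples shared the same medium, which contained EGF at 5 ng/ml, horse serum at 2%, insulin at 10 µg/ml, hydrocortisone at 0.5 µg/ml and cholera toxin at 100 ng/ml, with Matrigel at 2% and refeeding every 4 days. No untreated or ERK-inhibited sample was analysed here.

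In this pathway EGF binds its receptor at the cell surface, the adaptor GRB2 brings the exchange factor SOS to RAS, and RAS starts the kinase relay that runs through MEK to ERK. Active ERK enters the nucleus and, through ETS-family factors and serum response factor (SRF), turns on a fast set of transcripts. Several of these shut the pathway down again: the dual-specificity phosphatases DUSP4, DUSP5 and DUSP6 remove the activating phosphates of ERK, and the Sprouty proteins SPRY2 and SPRY4 act upstream, near the receptor and RAS. The other members are further outputs of the pathway. ETV4 and ETV5 are PEA3-subfamily ETS factors, and EGR1 is an immediate early zinc finger factor. IER3 is an early response survival factor, and PHLDA1 is a pleckstrin homology-like protein widely used as a readout of MEK and ERK activity. Mammary epithelial cells such as MCF10A depend on EGF in the medium for growth.

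Promoter sequence is shown for PHLDA1, whose outer and inner values did not overlap in these data, and for EGR1, whose values did. The pair was picked by these values, and a link between the elements and the layers was not tested. The RefSeq table of GRCh38.p14 promoters held windows for 5 of the 10 members, PHLDA1, EGR1, DUSP6, SPRY2 and SPRY4. Both windows are the 250 bases before the annotated start, written 5′ to 3′ on the gene's strand. The PHLDA1 window is chr12:76031777-76032026 on the minus strand and the EGR1 window is chr5:138465229-138465478 on the plus strand. Capitals mark matches, on either strand, to the CArG box bound by SRF, to the ETS core CGGAAG, the PEA3 core AGGAAG, the AP-1 site TGANTCA or the cyclic AMP element core TGACG, and no matches overlap in these windows.
PHLDA1: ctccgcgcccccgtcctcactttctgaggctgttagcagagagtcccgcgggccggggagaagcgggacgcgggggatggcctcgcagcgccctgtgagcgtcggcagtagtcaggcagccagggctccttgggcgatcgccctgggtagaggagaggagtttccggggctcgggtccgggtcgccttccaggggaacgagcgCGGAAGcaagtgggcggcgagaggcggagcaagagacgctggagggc
EGR1: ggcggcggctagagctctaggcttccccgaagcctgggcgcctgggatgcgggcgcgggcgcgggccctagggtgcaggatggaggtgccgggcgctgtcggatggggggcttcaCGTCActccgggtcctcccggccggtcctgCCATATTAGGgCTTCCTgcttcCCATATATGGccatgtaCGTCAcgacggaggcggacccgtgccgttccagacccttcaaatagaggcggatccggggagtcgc

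The EGR1 window held 2 CArG boxes, which lie 105 to 96 and 83 to 74 bases before the start, with a PEA3 core between them, and 2 cyclic AMP element cores at 135 to 131 and 66 to 62 bases. The PHLDA1 window held 1 match, an ETS core 47 to 42 bases before the start, and no CArG box. A CArG box was found in 1.16% of 35114 promoter windows of the same length, the ETS core in 16.5%, the PEA3 core in 28.7%, the AP-1 site in 6.57% and the cyclic AMP element core in 21.2%. These are matches of letters only, and the arrays did not measure binding.

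**Figure D1:**
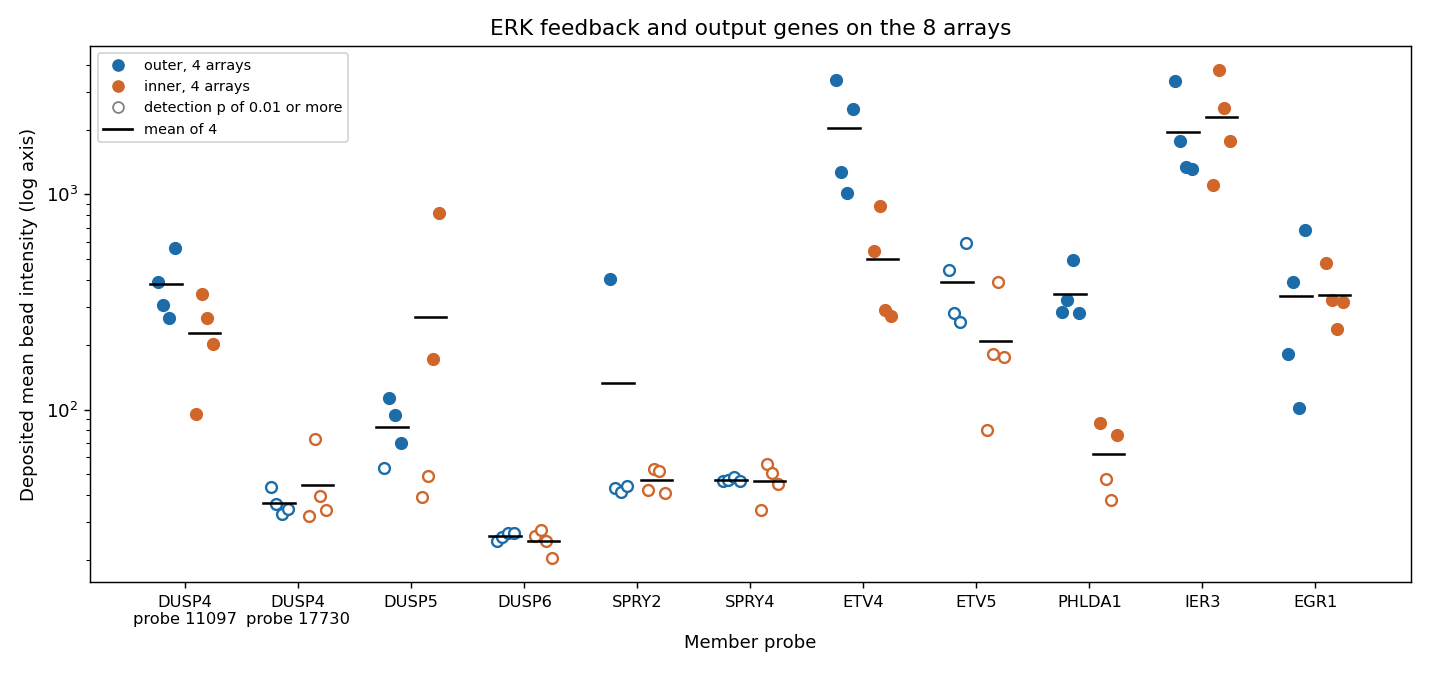
Deposited mean bead intensity (log axis) of each of the 11 member probes on the 4 outer (blue) and 4 inner (orange) arrays, with open points where the detection p was 0.01 or more and black bars for the mean of 4. ETV4 and PHLDA1 lie wholly higher on the outer arrays, DUSP6 and SPRY4 were detected on none of the 8 at 0.01, and SPRY2 stands up on 1 outer array alone.

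Across the arrays the mean intensity lay between 344.4 and 533.0, and 6429 to 7000 probes per array had a detection p, the share of background controls brighter than the probe, below 0.01. Log2 intensities were compared after neqc, the limma method that subtracts a background inferred from the detection p, and 6698 probes detected on at least 4 arrays were tested. The defining keratins of this line, KRT5, KRT14 and KRT17, were detected on all 8 arrays, while KRT6A and CDH1 were detected on none. Of the markers of other cell types, 5 of 5 endothelial genes, 3 of 7 fibroblast genes, 3 of 6 leukocyte genes and 2 of 3 adipocyte genes were detected on no array. Among the rest, CD68 was detected on all 8 arrays, and so was 1 probe of the fibroblast gene DCN, at intensities of 1202 to 4465. Another DCN probe was detected on 2 inner arrays only. COL1A2 was detected on 4 outer and 2 inner arrays, and CD14 on 3 inner arrays only. COL1A1, COL3A1, PTPRC and ADIPOQ were each detected on at most 1 array of a layer. The summed intensity of the fibroblast list was 1556 to 4567 on outer and 1559 to 4795 on inner arrays, mostly from 1 DCN probe, and PDGFRB, THY1 and LUM were detected on no array. Summed epithelial markers were 19489 to 24080.4 on outer and 12123 to 20396 on inner arrays, and their part in the member values was not tested. Whether the 4 samples of a layer came from separate cultures is not given, so the p-values rest on a spread between samples that may be technical. In such samples a lower level per cell and fewer cells that express a gene cannot be told apart.

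Of the 10 member genes, 6 passed the detection filter with 1 probe each, and 0 of these 6 passed an adjusted p of 0.05, against 0.0149% of all probes tested, which is 1 probe. Outer cells were higher for 3 of them and lower for 3, and 50.6% of all probes were higher. The median log2 difference over the 6 was 0.15, against 0.00199 over all probes tested, and it was -0.03 without outer replicate 4. With the lower background described under PHLDA1 it was 0.29, against 0.00746 over all probes. Unadjusted p was below 0.05 for 2 of the 6, ETV4 and PHLDA1, against 8.06% of all probes. These were also the 2 whose outer values all lay above their inner values, which held in that direction for 2.57% of all probes. The other 4 members tested were DUSP4, with a higher outer mean, and DUSP5, IER3 and EGR1, whose intervals were wide and held 0. A member that is high in one group only could pass the filter through that group. PHLDA1, detected on 4 outer and 2 inner arrays, passed only with its outer arrays, so its place in these counts partly reflects the filter. Members were also chosen with earlier results of these data known. These counts describe the 6 that passed and not the 10.

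ETV4, the PEA3-subfamily ETS factor, showed the largest neqc difference among the 6 members tested. Its deposited intensities (probe ILMN_25435) were 3389, 1269.6, 1012 and 2497 on outer arrays 1 to 4, and 547, 886, 289.8 and 272 on inner arrays 1 to 4. Every outer array was brighter than every inner array, with the intensity gap at its narrowest between outer replicate 3 and inner replicate 2, and all 8 detected the gene. On the neqc log2 scale outer cells stood at 10.39 ± 1.02 and inner cells at 8.30 ± 0.51 (SD, n = 4 each). They differed by 2.09 (standard error 0.53, 95% confidence interval 0.85 to 3.33), a 4.26-fold difference (limma, unadjusted p = 0.00523, adjusted p = 0.343). By unadjusted p ETV4 stood at rank 101 of 6698 probes, and it did not pass the adjusted threshold. Leaving out 1 array gave log2 differences from 1.76 to 2.50.

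The ETV4 signal also varied among the samples of each layer. Relative to the mean of its array, the outer intensity was 4.52 ± 2.27 and the inner 1.14 ± 0.56 (SD, n = 4 each), so that the coefficient of variation between arrays was 50.1% and 49.2%. The standard error over the beads of one array was 2.36% to 6.36% of the signal, a reading error that leaves out dissection and amplification. For this probe the authors' deposited table gives an inner over outer ratio of medians of 0.222 from unscaled intensities and 0.253 from scaled ones.

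PHLDA1 was the other member whose layers did not overlap. Its intensities (probe ILMN_138322) were 283, 324, 493 and 281 on outer arrays 1 to 4 and 86.9, 47.6, 38.1 and 76.4 on inner arrays 1 to 4. The outer arrays all detected it, while inner replicates 2 and 3, with detection p of 0.151 and 0.162, did not, so the difference is taken partly against background. Neqc gave 7.96 ± 0.18 against 7.49 ± 0.05 (SD, n = 4 each). They differed by 0.47 (standard error 0.10, interval 0.23 to 0.71), a 1.38-fold difference (limma, unadjusted p = 0.00233, adjusted p = 0.261, rank 59 of 6698).

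The size of the PHLDA1 difference depended on the background. Neqc inferred a background mean of 96.5 to 126.1 per array from all probes, above every inner PHLDA1 intensity. It also exceeded the lowest detected intensity of each array, 51.4 to 77.0, so neqc draws dim signals close together. Restricted to probes with a detection p at a whole multiple of 1 in 708, called the regular steps here, the background estimate was 31.1 to 38.4. With that lower background outer PHLDA1 stood at 8.30 ± 0.44 and inner PHLDA1 at 5.50 ± 0.94 (SD, n = 4 each), a log2 difference of 2.80 with an interval from 1.66 to 3.95, or 6.98-fold (limma, adjusted p = 0.204, rank 18 of 6698). The intensities relative to the array mean, with no background taken off, were 0.772 ± 0.212 and 0.153 ± 0.081 (SD, n = 4 each), a ratio of 5.04. ETV4, brighter than both background means on all 8 arrays, had a log2 difference of 2.01 with the lower one (interval 0.77 to 3.25, adjusted p = 0.432). Neither gene passed under either background. With the lower background 4 of 6698 probes passed, 0.0597%, and 4.08% had an unadjusted p below 0.05 and a higher outer level.

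**Figure D2:**
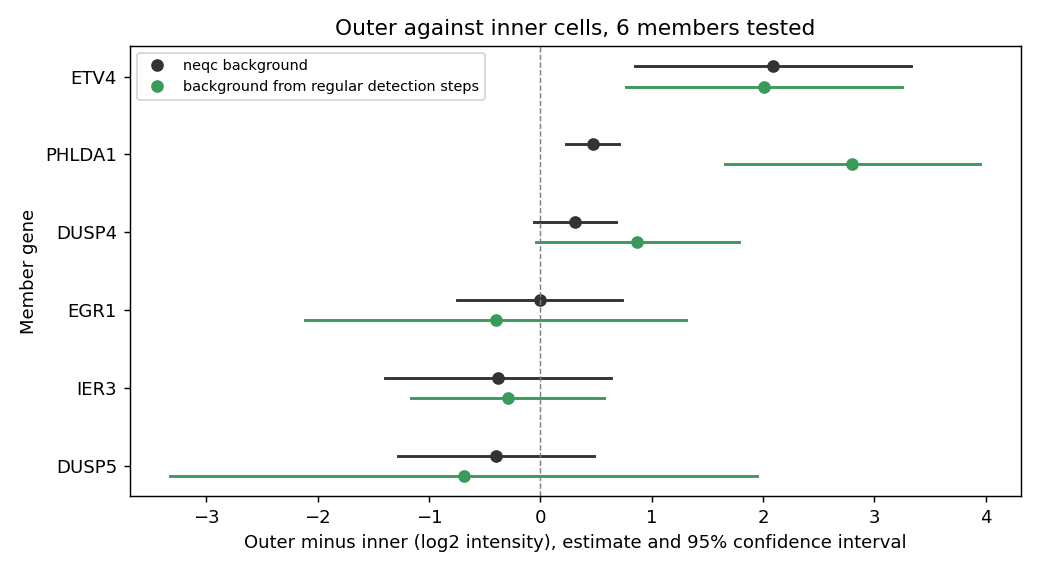
Outer minus inner log2 difference (points) with its 95% confidence interval (lines) for the 6 members tested, with the neqc background (black) and the background from probes on regular detection steps (green). The intervals of ETV4 and PHLDA1 lie above 0 with both, PHLDA1 moves from 0.47 to 2.80, and the intervals of DUSP4, EGR1, IER3 and DUSP5 hold 0.

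ETV4 and PHLDA1 did not follow each other on the outer arrays. ETV4 was brightest on outer replicates 1 and 4, and PHLDA1 was brightest on outer replicate 3, where ETV4 was dimmest. Across the 8 arrays Pearson's r of their neqc values was 0.55, and about the group means it was -0.80. The neqc values of PHLDA1 had an SD of 0.18 on outer and 0.05 on inner arrays. The outer arrays therefore weigh most in the -0.80. On the inner arrays both genes had their highest neqc value on replicate 1 and their lowest on replicate 3, where PHLDA1 was not detected. No r was computed with the lower background. Among the 15 pairs of members tested, r about the group means ran from -0.80 to 0.53, the highest for DUSP4 and EGR1. These are descriptions over 8 arrays that share their layer.

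ETV5, the closest relative of ETV4 among the members, could not be tested under the detection filter. Its intensities (probe ILMN_12676) were 444, 279, 256 and 595 on outer arrays 1 to 4 and 80.2, 181, 393 and 176 on inner arrays 1 to 4. The outer mean was higher, but inner replicate 3 lay above outer replicates 2 and 3, so the layers overlapped. Its detection p ran from 0.0255 to 0.0898 although its signal exceeded the lowest detected intensity, 51.4 to 77.0 per array, and it does not lie on the regular steps. Its number of beads was fractional on 3 arrays, as in rows that average more than 1 bead type. With no filter on detection the log2 difference was 0.35 with an interval from -0.11 to 0.81 (limma, adjusted p = 0.891), and 1.12 with an interval from -0.08 to 2.32 with the lower background (adjusted p = 0.919).

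Among the ERK phosphatases, DUSP4, a nuclear phosphatase of ERK and JNK, was detected on all 8 arrays by 1 of its probes. Its intensities (probe ILMN_11097, annotated to transcript variant 2) were 390.5, 307, 266 and 564 on outer arrays 1 to 4 and 95.2, 346, 265 and 203 on inner arrays 1 to 4. Outer replicate 4 was the highest and inner replicate 1 the lowest, and the layers overlapped. Inner replicate 2 exceeded outer replicates 2 and 3 in intensity, and only outer replicate 3 on the neqc scale, with 7.81 against 7.79. Neqc gave 8.04 ± 0.30 against 7.73 ± 0.11 (SD, n = 4 each). The log2 difference was 0.31 with an interval from -0.06 to 0.68 (limma, adjusted p = 0.690), 0.17 without outer replicate 4 and 0.87 with the lower background (interval -0.04 to 1.78, adjusted p = 0.639). The other DUSP4 probe (ILMN_17730, annotated to transcript variant 1) stayed between 32.1 and 72.9 and was detected on no array.

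DUSP5, a nuclear phosphatase selective for ERK, was dim on most arrays. Its intensities (probe ILMN_12928) were 53.6, 113, 94.1 and 69.8 on outer arrays 1 to 4 and 39.2, 49.0, 171 and 818 on inner arrays 1 to 4. It was detected on 3 outer and 2 inner arrays, and inner replicate 4 stood far above the rest. The log2 difference of -0.40, with an interval from -1.28 to 0.48 (limma, adjusted p = 0.846), rested on that array and was 0.00 without it.

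DUSP6, the cytoplasmic phosphatase that is the textbook reporter of ERK activity, gave no signal. Its 1 probe (ILMN_5440, annotated to transcript variant 1) lay between 20.5 and 27.7 on the 8 arrays, below the regular-step background mean of 31.1 to 38.4, with detection p from 0.790 to 0.989. The probe sets no limit on the amount of transcript, and no fold is given.

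The Sprouty genes were dim, with 1 exception. SPRY4 (probe ILMN_27154) lay between 34.1 and 55.7 with detection p from 0.0169 to 0.271, so that no array detected it at 0.01, though 4 arrays had a detection p below 0.05. SPRY2 (probe ILMN_19344) was at 402 on outer replicate 1 with a detection p of 0, and at 43.4, 41.2 and 44.0 on outer replicates 2 to 4. Inner arrays 1 to 4 gave 42.2, 52.9, 52.0 and 40.7, so SPRY2 was detected at 0.01 in 1 of 8 samples. On inner replicates 1 and 3 its detection p was 0.0466 and 0.0155, below 0.05. The standard error over the 46 beads of outer replicate 1 was 5.22% of its signal. With no filter the SPRY2 log2 difference was 0.12 with an interval from -0.17 to 0.40 (limma, adjusted p = 0.891), and 0.74 with an interval from -1.22 to 2.69 with the lower background (adjusted p = 0.920). No inner or other outer array detected it at 0.01.

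The immediate early members were expressed in both layers and did not separate them. IER3, detected on all 8 arrays, had intensities (probe ILMN_14915) of 3374, 1761, 1339 and 1316 on outer arrays 1 to 4 and 1104, 3770.4, 2531 and 1775 on inner arrays 1 to 4. The layers overlapped, with the highest value on inner replicate 2. The lowest was on inner replicate 1 in intensity and on outer replicate 3 on the neqc scale. The log2 difference was -0.38 with an interval from -1.40 to 0.64 (limma, adjusted p = 0.887), and it ran from -0.71 without outer replicate 1 to -0.16 without outer replicate 3.

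EGR1 was detected on all 8 arrays, with intensities (probe ILMN_20932) of 180.2, 390.5, 101.4 and 680.2 on outer arrays 1 to 4 and 481, 324, 237 and 316 on inner arrays 1 to 4. Outer cells held both the highest and the lowest value. The coefficient of variation of the intensity relative to the array mean was 79.8% in outer and 47.7% in inner cells. The log2 difference was -0.01 with an interval from -0.75 to 0.73 (limma, adjusted p = 0.999), a direction that turns under median scaling and cyclic loess, and -0.40 with the lower background (interval -2.11 to 1.31). The intervals of IER3 and EGR1 hold sizeable differences in either direction, so they do not show equal levels.

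Other genes of the pathway, from lists chosen with earlier results of these data known, gave 0 probes past the adjusted threshold. Of 14 probes tested for the cascade from adaptor to kinase, 10 were higher and 4 lower in outer cells, with a median log2 difference of 0.14. Over all probes tested, 50.6% were higher. The adaptor GRB2 differed by 0.24 (limma, adjusted p = 0.621), or 1.01 with the lower background. Its probe, detected on 2 outer and 3 inner arrays, lies off the regular steps, like that of ETV5. Of 9 probes for other feedback inhibitors, 5 were higher and 4 lower, with a median of 0.12, or 0.08 with the lower background. SPRED1 and SPRED2, Sprouty-related inhibitors of RAS signalling, differed by 0.89 (adjusted p = 0.721) and 0.71 (adjusted p = 0.742), and with the lower background by 1.64 and 0.75.

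Transcripts that other cell systems make in an ERK-dependent way were higher for 10 of 13 probes tested, against 50.6% of all probes. Their median log2 difference was 0.04, or 0.46 with the lower background. Some of the 10, HBEGF and TNFRSF12A among them, were detected on 3 outer arrays and 1 inner array. The count of higher probes thus partly reflects the filter. An unadjusted p below 0.05 (limma) was reached by 4 of the 13, each higher in outer cells, against 3.84% of all probes in that direction. FOSL1, the AP-1 subunit FRA-1, gave 9.14 ± 0.40 against 8.20 ± 0.57 (SD, n = 4 each), a log2 difference of 0.94 (limma, adjusted p = 0.491). ODC1, the first enzyme of polyamine synthesis, gave 12.31 ± 0.18 against 11.94 ± 0.12 (SD, n = 4 each), a difference of 0.38 (limma, adjusted p = 0.424). The remaining 2, named after their values were seen, were the phosphate transporter SLC20A1 at 0.70 (adjusted p = 0.572) and the receptor kinase EPHA2 at 0.42 (adjusted p = 0.584), which stood at 1.31 with the lower background.

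**Figure D3:**
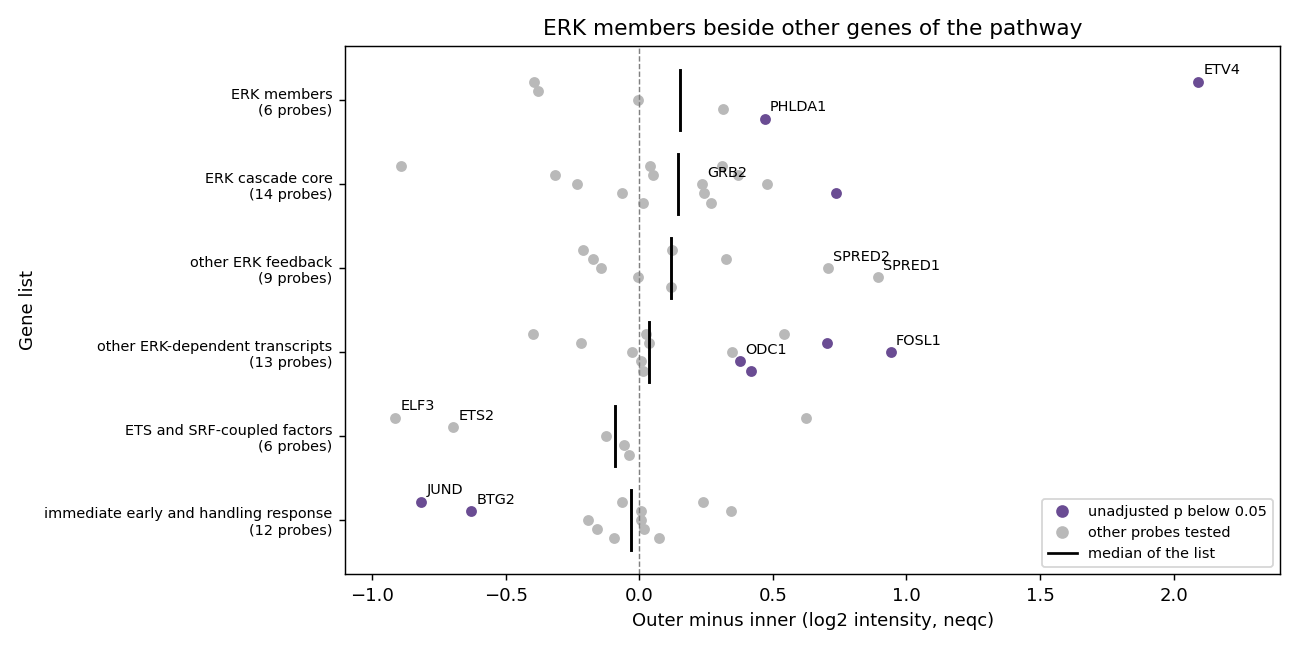
Outer minus inner log2 difference of each probe tested (points, purple where the unadjusted p is below 0.05) in 6 gene lists, with the median of each list (black bar) and the names of the probes given in the text by their small p. On this neqc scale ETV4 at 2.09 is the point farthest from 0, and the list medians lie between -0.09 and 0.15; with the lower background they lie between -0.82 and 0.46, and PHLDA1, BTG2 and ELF3 lie farther from 0 than ETV4.

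Of 6 probes tested for ETS factors and SRF-coupled factors, 1 was higher and 5 lower in outer cells, with a median of -0.09, or -0.82 with the lower background. ETS2 differed by -0.70 (limma, adjusted p = 0.762) and ELF3, an epithelial ETS factor detected on 1 outer and 4 inner arrays, by -0.91 (adjusted p = 0.770), or -2.52 with the lower background. ETV1, the third PEA3-subfamily factor, which stands in the ERK-dependent list, was detected on no array. The immediate early and handling-response list, which holds genes that respond to stress within minutes, split into 6 higher and 6 lower of 12 with a median of -0.03, or -0.08 with the lower background. Its 2 genes with an unadjusted p below 0.05 had lower outer means, against 4.23% of all probes in that direction: the antiproliferative BTG2 at -0.63 (limma, adjusted p = 0.343; -2.64 with the lower background) and the AP-1 subunit JUND at -0.82 (adjusted p = 0.461). Summed intensities of this list were 14790 to 17747 on outer and 14991 to 23338 on inner arrays. Their part in the member values was not tested.

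The number of probes with a Pearson r above 0.9 to a member over the 8 arrays ran from 4 for IER3 to 66 for DUSP5. DUSP5 stood at 9.11 on inner replicate 4 and at 7.45 to 7.63 on the other inner arrays. Its r values therefore rest largely on that 1 array. For ETV4 the highest correlations of neqc values were with CLMP (deposited as ASAM) and SRPK1, both at a Pearson r of 0.97, and for PHLDA1 with NCLN and CCNI, both at 0.97. For DUSP4 they were NR2C2AP (deposited as TRA16) at 0.96 and TRAIP at 0.95, for IER3 PISD at 0.95 and INPP4B at 0.92, and for EGR1 STEAP3 at 0.94 and MTFR1 at 0.93. The DUSP5 neighbours NHLRC2 and EML1, both at 0.99, had Spearman rho of 0.88 and 0.17 with it. The neighbours of ETV4 and PHLDA1 were also higher in outer cells, by 0.54 to 1.29 log2, so their r takes in the layer difference. All neighbours named are the closest of all probes tested, over 8 arrays, and carry no test.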

How the data were processed

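Gene expression was measured on 8 Illumina arrays, 4 outer and 4 inner, grouped by sample title. Per the file headers, the deposited tables give an intensity averaged over beads and a detection p-value for every probe and array, and the values show no background subtraction or normalization. A second deposited set holds the ratio of intensity to array mean, as recomputed here. The deposited tables held equal values. The scanning software is not given in the sources used here. A probe that lacked beads on 1 array was dropped.

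The neqc function (limma 3.58.1, R 4.3.3) gave log2 intensities (background from the detection p, offset 16, quantile normalization). The test covered probes detected at p below 0.01 on 4 or more arrays, with lmFit and eBayes, group as the only term, and adjusted by Benjamini-Hochberg over all of them at 0.05. The fit was tested on simulated data. Another background came from the 19051 probes whose detection p is a whole multiple of 1 in 708 on every array, within 0.001 of a whole number. Its SD was 6.24 to 11.7 per array, against 262.5 to 391.3 with the 1537 others included.

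Members and lists were chosen with earlier results of these data known. The text names all members, list probes past the threshold, the 2 smallest p per list (1 of these is not reported here), and the 2 probes most correlated with each member tested. Symbols were current for 15331 probes, updated through RefSeq synonyms for 3575 and kept for 1682. The number of arrays limits the precision. Same-numbered samples did not deviate together, so replicate number was used only in an alternative.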

Additional observations from a re-analysis of the deposited data

Results flagged for a closer look

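In the 22 groups of 4 log2 values of the member probes, 2 contained an array that lay apart. About 1 group in 20 would do so by chance. DUSP5 was at 9.11 (neqc log2) on inner replicate 4 and at 7.45 to 7.63 on the remaining inner arrays. SPRY2 was at 7.94 on outer replicate 1, with the other outer arrays at 7.45.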

How the results depend on the processing

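No member passed the adjusted threshold (limma) in any of the 20 alternatives, of which detection on all 8 arrays leaves PHLDA1 and DUSP5 untested; 2 members had an unadjusted p below 0.05 with neqc. ETV4 was higher in outer cells in all 20, with log2 differences from 1.76 to 2.50 and adjusted p from 0.294 to 0.767. The number of all probes past the threshold, 1 with neqc, was 4 with the background from regular detection steps, 3 with no background correction and with the authors' scaled values, 2 with the saddle-point background, and 0 with no filter, with detection on all 8 arrays or at 0.05, and it was 0 to 3 with 1 array left out. With regular steps and no filter, chosen after seeing the data, it was 2. EGR1 turned to 0.064 with median scaling and 0.0087 with cyclic loess, and ran from -0.25 to 0.18 with 1 array left out. DUSP5 ran from -0.55 to 0.0042 with 1 array left out. SPRY4, detected on no array at 0.01, moved from 0.00021 to -0.00057 with regular steps and no filter. With the replicate block 1 probe passed and ETV4 had adjusted p = 0.483, and same-numbered samples correlated at -0.04 to 0.03 about their group means. Detection limits what can be said of DUSP6, SPRY2, SPRY4 and ETV5.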

Other observations

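The detection p of ETV5 belongs to a wider pattern in the deposited table. Of the 1537 probes with a detection p off the regular steps, 1532 had a fractional number of beads on some array, against 50 of the 19051 on the steps. Among probes with a mean intensity above 300, 197 of 275 off the steps missed the detection filter, against 37 of 4275 on the steps. Any gene of such a row, ETV5 among them, can be bright and still be missing from the tested set.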
